A study of Mus musculus and Rattus norvegicus with 24 samples.

Results

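The fetal gene program was followed through 8 genes: Nppa and Nppb, which encode natriuretic peptides; Acta1, Myh7 and Myh6, which encode proteins of the contractile filaments; and Ankrd1, Rcan1 and Sprr1a, which are widely read as markers of load, calcineurin activity and injury in heart muscle. The genes were chosen by name. All 8 were found in the table of mouse hearts, among 54532 genes, and all 8 in the table of rat cells, among 17301 gene names. The RNA-seq samples were 18 mouse hearts and 6 cultures of neonatal rat ventricular myocytes (NRVM), muscle cells isolated from the ventricles of newborn rats. There were 3 hearts in each of 6 groups. The genotypes are named ctrl and cKO, taken here as control and conditional ATF4 knockout on the strength of the titles and design text. Each genotype was sampled after a sham operation, at day 3 and at day 7 of transverse aortic constriction (TAC), in which a ligature narrows the aortic arch and raises the pressure load on the left ventricle. The rat cells carried an adenovirus for GFP (adGFP, n = 3) or for ATF4 (adATF4, n = 3); both sets had been plated, kept in serum-free medium and infected there, with BrdU in the medium before infection. ATF4 is a transcription factor of the integrated stress response, which raises genes of amino acid synthesis and transport when translation is impaired. A further label on the cKO hearts reads as overexpression of ATF4 and goes against their titles; the groups were taken from the titles. The labels used here do not give the Cre driver, the deleted allele, the age or the sex of the mice, nor whether the replicates were separate animals or cultures. The p-values therefore measure the spread between these libraries, part of which may be technical.

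In the fetal heart the ventricle makes both natriuretic peptides, the slow myosin heavy chain and skeletal alpha-actin, and after birth these give way to the fast heavy chain and cardiac alpha-actin. Pressure overload and heart failure bring the fetal set back in the rodent ventricle, which is why the set is used as a gauge of hypertrophic stress. ANP and BNP, the products of Nppa and Nppb, are released into the blood, where they promote salt excretion and widen vessels through a receptor that makes cyclic GMP. In mouse and rat the shift from the fast to the slow heavy chain lowers the speed and the energy cost of contraction.

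In the deposited GRCm38 positions the peptide genes and the heavy chain genes lay side by side. Nppb (ENSMUSG00000029019) lay at chr4:147985788-147987205 on the plus strand. Nppa (ENSMUSG00000041616), at chr4:148000722-148002079, began 13.5 kb past its end on the same strand. Myh6 (ENSMUSG00000040752) lay at chr14:54941921-54966927 on the minus strand and Myh7 (ENSMUSG00000053093) at chr14:54970684-54994626, 3.76 kb upstream of it in the direction of transcription. Acta1 (ENSMUSG00000031972) lay at chr8:123891769-123894751, Ankrd1 (ENSMUSG00000024803) at chr19:36111965-36119844, Rcan1 (ENSMUSG00000022951) at chr16:92391953-92470867 and Sprr1a (ENSMUSG00000050359) at chr3:92483952-92485895, all on the minus strand. Myh6 and Myh7 have long near-identical coding stretches, as do Acta1 and the cardiac actin gene Actc1, so reads may have been split between the members of these pairs. The counting step is not stated in the sources used here.

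The 250 bases before the gene start are shown for 3 members because they hold the elements that are best known from promoter work on these genes. The sequences are RefSeq reference sequence of GRCm38.p6, written 5′ to 3′ on the gene's own strand and ending just before the RefSeq start. Capitals mark matches to the CArG box, which serum response factor binds, to MCAT (CATTCC, or GGAATG on the other strand), which TEAD factors bind, and to GATA (GATAA, or TTATC on the other strand), which GATA4 binds.

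Acta1, chr8:123894776-123895025, minus strand: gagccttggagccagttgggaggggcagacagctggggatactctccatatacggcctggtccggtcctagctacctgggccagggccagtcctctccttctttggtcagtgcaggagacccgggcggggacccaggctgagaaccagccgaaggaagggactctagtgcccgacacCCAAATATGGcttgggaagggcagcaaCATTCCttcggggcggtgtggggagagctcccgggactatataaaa

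Ankrd1, chr19:36119845-36120094, minus strand: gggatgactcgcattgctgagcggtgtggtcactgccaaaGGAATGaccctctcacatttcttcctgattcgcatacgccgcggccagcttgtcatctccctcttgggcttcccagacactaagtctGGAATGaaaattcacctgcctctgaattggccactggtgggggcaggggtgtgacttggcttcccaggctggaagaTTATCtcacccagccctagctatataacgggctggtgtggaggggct

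Nppa, chr4:148000472-148000721, plus strand: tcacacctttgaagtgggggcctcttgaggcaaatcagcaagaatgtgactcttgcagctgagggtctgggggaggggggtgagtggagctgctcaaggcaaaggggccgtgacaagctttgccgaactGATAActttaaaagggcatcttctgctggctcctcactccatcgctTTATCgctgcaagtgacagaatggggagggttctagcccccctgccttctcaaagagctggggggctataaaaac

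Acta1 held 1 CArG box and 1 MCAT, beginning 73 and 46 bases before the start. Ankrd1 held 2 MCAT matches, at 210 and 123 bases, and 1 GATA match at 47, and Nppa held 2 GATA matches, at 121 and 75. Of the members not printed, Nppb held 1 MCAT and 2 GATA matches, Myh6 1 MCAT, Myh7 1 MCAT in one of its 2 start windows, and Rcan1 and Sprr1a none of these letters. The element of ATF4 with a C/EBP partner, TGATGNAA on either strand, was in none of the windows of the 8 genes. Of 32851 RefSeq promoters of the same length, 3.45% held that element, 12.6% MCAT, 22.6% GATA and 1.47% the CArG box, so the short motifs are common everywhere. A match describes these letters only, and their absence from this window says nothing about where a factor binds.

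The mouse libraries held 15106975 to 18112798 counts. The levels below are counts scaled to a common library total after TMM (CPM). Atf4 itself averaged 56.5 CPM in ctrl sham hearts and 23.5 in cKO sham hearts, and it was lower in cKO at every time, by 1.26 ± 0.18 (SE) on the log2 scale in sham, 1.74 ± 0.19 at TAC 3 d and 1.37 ± 0.18 at TAC 7 d (edgeR quasi-likelihood test with Benjamini-Hochberg adjustment, adjusted p = 0.0487, 0.000334 and 0.00423). The library of ctrl sham replicate 3 was low in Atf4 for its group, at 34.3 CPM against 66.2 and 68.8. In a principal component analysis 3 further libraries lay apart from the others: replicate 3 of ctrl TAC 3 d, replicate 2 of cKO TAC 3 d, and replicate 2 of cKO TAC 7 d. Among the 8 genes, where a result rests on any of these 4 libraries, its value without that library follows. Values of Atf4 and of the genes named from lists are given with all hearts only and may rest on these libraries. Over all genes, calls for TAC 3 d against sham in ctrl hearts went from 4225 to 2310 without replicate 3 of that day. The 12 markers of ventricular muscle, such as Tnnt2 and Myl2, summed to 25708 to 46890 CPM. Myl7, Sln and Bmp10, the defining markers of atrial muscle, did not pass 0.441 CPM in any heart and were at 0 in 8, 14 and 12 of the 18. The other 6 genes of that atrial list were detected, led by Kcnj3 at 60.3, Stard10 at 25.8 and Nr2f2 at 17.3 CPM on average in ctrl sham hearts.

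Compared per length in FPKM, as deposited by the authors, Myh6 was the highest of the 8 genes in ctrl sham hearts, at 5138 ± 345 (SD, n = 3). Ankrd1 followed at 618 ± 153, Nppb at 234 ± 32.1, Nppa at 169.7 ± 30.8 and Acta1 at 144 ± 38.9, the last pair within 1 SD of each other. Myh7 stood at 43.5 ± 3.56 and Rcan1 at 22.1 ± 2.51, while Sprr1a, at 0.0815 ± 0.0826, was at the edge of detection. In cKO hearts at TAC 7 d this order was altered. Nppa, at 3122 ± 1440.0, and Ankrd1, at 3117 ± 452, came near Myh6 on average, at 3525 ± 1051. That nearness rested on replicate 2, which lay apart, with Nppa at 4623, Ankrd1 at 3636 and Myh6 at 2323. In replicates 1 and 3 Myh6, at 3987 and 4267, was above Nppa, at 2991 and 1752. There it was also above Ankrd1, at 2809 and 2907. Acta1 came next on average at 1560.3 ± 173, above Nppb at 1203 ± 529.5. Myh7 had reached 450.2 ± 429.7, with 941 in replicate 2 and 268 and 142 in replicates 1 and 3.

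Most of the set was above sham in ctrl hearts at 3 d of TAC, and in cKO hearts at 7 d. In ctrl hearts at TAC 3 d, 5 of the 7 genes other than Sprr1a rose against sham and none fell: Nppa, Nppb, Acta1, Ankrd1 and Rcan1. Of all 15535 genes tested, 27.2% were called in this comparison and 14.8% rose. Sprr1a passed the filter on low counts only through the groups in which it was high, so it is described by its counts and left out of the counts of calls and the medians given for the hearts. By TAC 7 d 4 of the 7 were above sham in ctrl hearts (Nppb, Acta1, Ankrd1 and Rcan1), against a background of 7.29% called and 4.26% higher. None of the 7 was called in cKO hearts at TAC 3 d, and the background was 0.0% as well: edgeR called 0 of 15535 genes, with 1311 at an unadjusted p under 0.05, among them 3 of the 7, and DESeq2 called 32 genes, none of them a member. Of the 7, 6 rose in cKO hearts at TAC 7 d, Myh7 now among them, against 21.8% called and 11.4% higher. The calls of Acta1 were kept without any 1 library in these comparisons. In ctrl hearts at 7 d those of Nppb, Ankrd1 and Rcan1 were near the threshold and were kept on leaving out 1 heart in 1, 1 and 3 of 6 cases, with adjusted p-values up to 0.128, 0.206 and 0.0795. The Nppb call was kept without replicate 3 and the Ankrd1 call without replicate 2 of that day, and the Rcan1 call was lost without sham replicate 1 or 3 or without replicate 1 of that day. The median log2 fold change of the 7 genes was 1.90 at 3 d and 1.48 at 7 d in ctrl hearts, and 1.02 and 1.90 in cKO hearts, where the median of all genes was at most 0.0107 in size. The 3 d and 7 d comparisons within a genotype share their sham hearts.

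**Figure D1:**
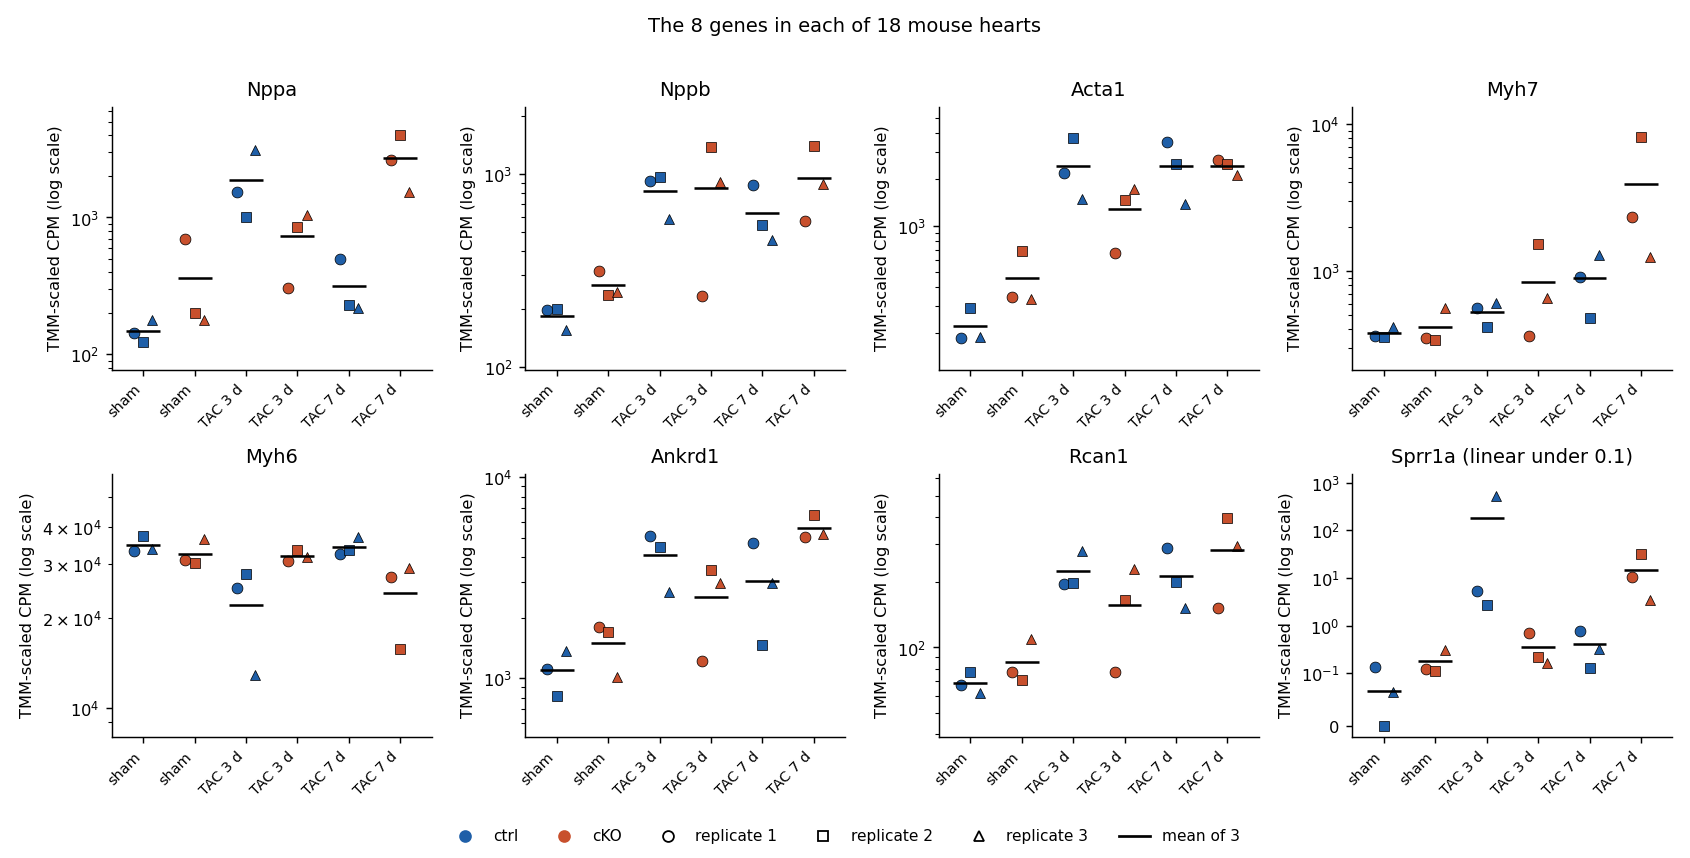
Level of each of the 8 genes in every mouse heart, in TMM-scaled CPM on log axes, with a linear stretch below 0.1 for Sprr1a; each point is 1 heart and each bar a group mean, n = 3. Nppa is high at TAC 3 d in ctrl hearts and at TAC 7 d in cKO hearts, Acta1 is high in both genotypes after TAC, and Sprr1a reaches 523 CPM in 1 ctrl heart at TAC 3 d.

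Between the genotypes at a matched time fewer members differed. In sham hearts none was called; edgeR had 2 of the 7 at an unadjusted p under 0.05 and DESeq2 called none, and 0.0193% of all genes were called. With TAC for 3 d none of the 7 was called, where 17.1% of all genes were called and 9.36% were lower. With TAC for 7 d 1 of the 7, Nppa, was higher in cKO, where 0.257% of all genes were called and 0.116% were higher. The genotypes also differed in the course from 3 d to 7 d. Between these days Nppa fell in ctrl hearts (background 14.8% called, 7.81% lower), while Nppa and Myh7 rose in cKO hearts (19.5% called, 9.26% higher). The difference between these courses was tested as an interaction of genotype and day. It was called for Nppa, as 1 of the 7, against 21.0% of all genes called and 11.0% higher. DESeq2 also called it for Myh6 and Ankrd1. The interaction of genotype with TAC against sham called none of the 7 at 3 d, where 0.669% of all genes were called, 2 of the 7 had an unadjusted p under 0.05 and DESeq2 called Acta1 alone. The same interaction at 7 d called none of the 7 and 0 genes in all (0.0%), with 682 genes and 2 of the 7 at an unadjusted p under 0.05, and DESeq2 called 1 gene, not a member.

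**Figure D2:**
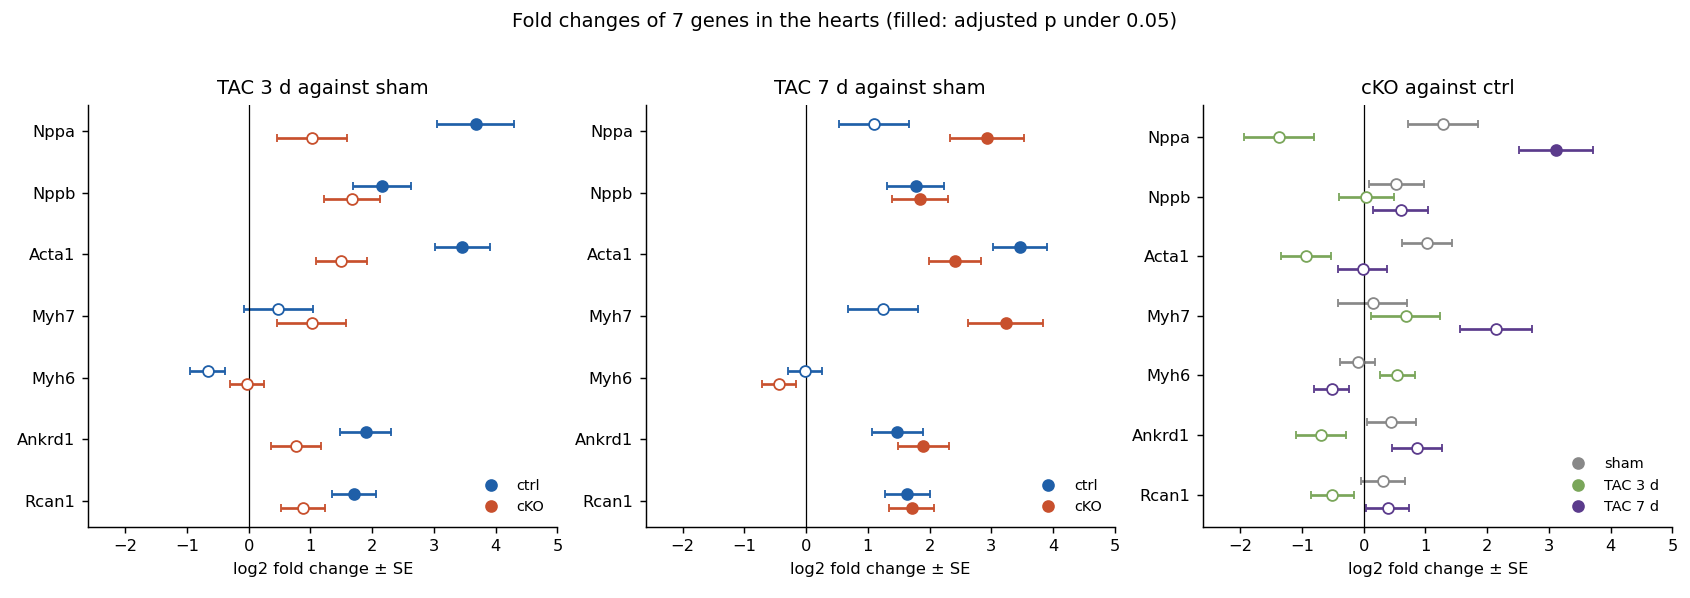
Log2 fold change with its standard error for the 7 genes other than Sprr1a (edgeR). Panels give TAC 3 d against sham and TAC 7 d against sham in each genotype, and cKO against ctrl at each time. Filled points have an adjusted p under 0.05. Acta1 stands near 3.46 in both ctrl comparisons with sham. For cKO against ctrl, Nppa is negative at TAC 3 d, without a call, and positive at TAC 7 d.

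Nppa, the gene of atrial natriuretic peptide, measured 142, 124 and 177 CPM in the 3 ctrl sham hearts and 1527, 1009 and 3119 CPM at TAC 3 d. Ctrl hearts at TAC 7 d were back at 501, 228 and 218 CPM. Every ctrl heart at 3 d was thus above every ctrl heart at 7 d, and those at 7 d were above sham by a smaller step. In cKO hearts Nppa stood at 701, 199.6 and 179 CPM after sham surgery and at 308, 851 and 1035 CPM at TAC 3 d, where the groups overlapped. By TAC 7 d it measured 2626, 4030.1 and 1538 CPM, above all 6 other cKO hearts, and these values overlapped those of ctrl hearts at 3 d.

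In ctrl hearts Nppa rose at 3 d by 3.68 ± 0.62 (SE) on the log2 scale (edgeR quasi-likelihood test, adjusted p = 0.000786). At 7 d its value against sham was 1.10 log2 units (adjusted p = 0.248), and from 3 d to 7 d it fell by 2.58 ± 0.59 (adjusted p = 0.0114). In cKO hearts the value at 3 d was 1.02 (adjusted p = 0.642). Nppa then rose, by 1.90 ± 0.58 from 3 d to 7 d (adjusted p = 0.0302) and by 2.92 ± 0.60 from sham to 7 d (adjusted p = 0.00473). The courses of the genotypes differed by 4.48 ± 0.82 (adjusted p = 0.00493), and this call was kept without any 1 of the 12 TAC hearts, at 3.93 to 4.99. Between genotypes at 7 d Nppa was higher in cKO hearts by 3.11 ± 0.60 (adjusted p = 0.0435), with no overlap of the groups. That call was close to the threshold: it was kept without replicate 3 of the cKO hearts and lost without any of the 5 others, with a log2 difference of 2.72 to 3.60 and an adjusted p of 0.0250 to 0.255. With a model of only the groups compared, neither this difference nor the ctrl fall from 3 d to 7 d was called (adjusted p = 0.0533 and 0.0734). Such a model did call Nppa at 7 d against sham in ctrl hearts (1.10, adjusted p = 0.0235). The fall in ctrl hearts from 3 d to 7 d also lost its call without replicate 2 of 7 d (-2.41, adjusted p = 0.0651). The rise from 3 d to 7 d in cKO hearts was kept only without replicate 3 of either day, and was 1.51 (adjusted p = 0.1197) without replicate 2 of cKO TAC 7 d. At TAC 3 d the difference between genotypes was -1.37 ± 0.57 (adjusted p = 0.103); it was -0.82 (adjusted p = 0.414) without replicate 3 of ctrl and -1.69 (adjusted p = 0.0474) without replicate 2 of ctrl. In sham hearts it was 1.29 ± 0.57 (adjusted p = 0.999), and 0.36 without cKO sham replicate 1, the heart at 701 CPM.

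Nppb, the gene of brain natriuretic peptide, gave a different picture from its neighbour. Its levels were 196, 199.2 and 155 CPM in ctrl sham hearts, 915, 964 and 583 CPM at TAC 3 d, and 878, 545 and 457 CPM at TAC 7 d. The cKO hearts measured 315, 235 and 244 CPM after sham surgery, 233, 1386 and 913 CPM at TAC 3 d, and 572, 1393 and 886 CPM at TAC 7 d. All ctrl hearts after TAC were above all ctrl sham hearts; in cKO hearts this held at 7 d, while at 3 d replicate 1 lay at the sham level. Nppb rose in ctrl hearts by 2.16 ± 0.46 at 3 d and 1.77 ± 0.46 at 7 d (edgeR, adjusted p = 0.00342 and 0.0292), and in cKO hearts by 1.85 ± 0.46 at 7 d (adjusted p = 0.0120). The value at 3 d in cKO hearts was 1.67 ± 0.46 (adjusted p = 0.394); without cKO TAC 3 d replicate 1 it was 2.12 ± 0.34 and called (adjusted p = 0.0315). The 7 d rise in cKO hearts was 1.45 without cKO TAC 7 d replicate 2 and no longer called (adjusted p = 0.0637). No difference between the genotypes in Nppb was called, with 0.53 ± 0.45 in sham hearts, 0.04 at 3 d and 0.60 at 7 d.

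The ratio of Nppa to Nppb per length put the neighbours side by side within each library. It was 0.653, 0.560 and 1.03 in ctrl sham hearts, 1.51, 0.945 and 4.83 at TAC 3 d, and 0.515, 0.377 and 0.432 at TAC 7 d. In cKO hearts it was 2.01, 0.767 and 0.663 after sham surgery, 1.19, 0.554 and 1.02 at TAC 3 d, and 4.14, 2.61 and 1.57 at TAC 7 d. At 7 d every cKO heart was above every ctrl heart, with means of 2.77 ± 1.30 and 0.441 ± 0.0693 (SD, n = 3 each). The exact permutation p for that difference was 0.1, the smallest that 3 libraries against 3 can give, and 0.2 after adjustment over the 10 comparisons of the ratio.

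The genes that process, bind and answer the natriuretic peptides were read from a list of 15, of which 13 were tested in the hearts. Counts for this and the other lists in the hearts are to be read against the shares of all genes called. Against sham these shares were 27.2% in ctrl at 3 d, 7.29% in ctrl at 7 d and 21.8% in cKO at 7 d. Between genotypes they were 17.1% at 3 d and 0.257% at 7 d, and from 3 d to 7 d 14.8% in ctrl and 19.5% in cKO. In ctrl hearts at TAC 3 d 1 of the 13 rose and 3 fell, with a list median of -0.22 against -0.0014 for all genes. Pde9a, a phosphodiesterase that breaks down cyclic GMP, rose by 0.99 ± 0.21 (edgeR, adjusted p = 0.00317). Corin, the protease that cuts the precursor of atrial natriuretic peptide, fell by 0.78 ± 0.15 (adjusted p = 0.00147), and Pde3a, a phosphodiesterase that cyclic GMP inhibits, fell by 0.76 ± 0.14 (adjusted p = 0.00158). Pde9a was also higher at 7 d, by 0.90 in ctrl and 1.02 in cKO hearts. In cKO hearts at 7 d 2 of the 13 rose and 2 fell, the latter including Mme, the enzyme neprilysin that degrades these peptides, by 2.00 ± 0.42 (adjusted p = 0.00513). Mme was the 1 gene of the list that differed between genotypes at 7 d, lower in cKO by 2.22 ± 0.42 (adjusted p = 0.0361). At 3 d Corin was higher in cKO by 0.81 ± 0.15 and Npr3, the clearance receptor, by 1.62 ± 0.30, while Prkg2 was lower by 2.37 ± 0.71 (adjusted p = 0.00291, 0.00312 and 0.0308).

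Acta1, the gene of skeletal alpha-actin, had the same log2 rise over sham at both days in ctrl hearts. Ctrl hearts measured 186, 292 and 191 CPM after sham surgery, 2182, 3689 and 1492 CPM at TAC 3 d, and 3474, 2509.9 and 1382 CPM at TAC 7 d. In cKO hearts the values were 343, 687 and 335 CPM in sham, 664, 1465 and 1734 CPM at TAC 3 d, and 2655, 2494 and 2131 CPM at TAC 7 d. Ctrl hearts covered nearly the same range on both days, while cKO hearts at 3 d lay between their sham and their 7 d levels on average, with replicate 1 inside the sham range. Acta1 rose by 3.46 ± 0.44 at both days in ctrl hearts (edgeR, adjusted p = 0.000234 and 0.00127) and by 2.41 ± 0.42 at TAC 7 d in cKO hearts (adjusted p = 0.00228). At 3 d in cKO hearts its value was 1.50 ± 0.41 (adjusted p = 0.394). The response at 3 d differed between genotypes by -1.96 ± 0.57, which missed the threshold in edgeR (adjusted p = 0.0921) and passed it in DESeq2 (-1.97, adjusted p = 0.0355). The groups of sham hearts did not overlap, with cKO higher by 1.03 ± 0.41, but this was not called (adjusted p = 0.999); 6.55% of all genes were higher without overlap there. As a share of Acta1 plus Actc1 per length, Acta1 averaged 2.14% in ctrl sham hearts, with 15.6% at 3 d and 18.3% at 7 d of TAC, and 4.62%, 9.70% and 17.5% in cKO hearts.

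Myh7, the slow myosin heavy chain, was highest on average in cKO hearts at TAC 7 d, with a wide spread. Its levels were 361, 356 and 414 CPM in ctrl sham hearts, 556, 418 and 606 CPM at TAC 3 d, and 914, 479 and 1274 CPM at TAC 7 d. The cKO hearts stood at 349.8, 341 and 559.9 CPM in sham and at 361, 1518 and 656 CPM at TAC 3 d. By TAC 7 d they reached 2344, 8171 and 1239 CPM, replicate 2 far above the other 2. Neither rise in ctrl hearts passed the test, at 0.48 (edgeR, adjusted p = 0.555) and 1.24 (adjusted p = 0.189), although the groups did not overlap on either day. Of all genes, 20.9% at 3 d and 17.9% at 7 d were higher without overlap. With a model of only the groups compared, the value at 7 d in ctrl hearts was called (1.24, adjusted p = 0.0114). In cKO hearts Myh7 rose by 3.23 ± 0.61 from sham to 7 d (adjusted p = 0.00308), and by 2.09, still called, without replicate 2. All 3 hearts at 7 d were above all cKO sham hearts, as for 22.3% of all genes. From 3 d to 7 d it rose by 2.21 ± 0.58 (adjusted p = 0.0171), but by 1.09 and without a call when replicate 2 of 7 d was left out (adjusted p = 0.145), and by 1.85 without replicate 1 of 3 d (adjusted p = 0.0724). A model of only the groups compared did not call that rise either (2.22, adjusted p = 0.0854). The difference between genotypes at 7 d was 2.14 ± 0.58 (adjusted p = 0.109); DESeq2 called it (2.13, adjusted p = 0.0338), and it was 1.01 without replicate 2.

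Myh6, the fast heavy chain that dominates in the adult mouse ventricle, was called in none of the mouse comparisons by edgeR. DESeq2 called it in 3: ctrl hearts at TAC 3 d, from 3 d to 7 d in ctrl hearts (0.64, adjusted p = 0.0375), and the interaction of genotype and day (-1.06, adjusted p = 0.0110). It measured 33090.4, 37304 and 33775 CPM in ctrl sham hearts, 25072, 27836 and 12862 CPM at TAC 3 d, and 32359, 33536 and 37001 CPM at TAC 7 d. In cKO hearts it was at 30941, 30336 and 36420.0 CPM in sham, 30816, 33392 and 31627 CPM at TAC 3 d, and 27226, 15744 and 29115 CPM at TAC 7 d. Lowest were replicate 3 of ctrl TAC 3 d and replicate 2 of cKO TAC 7 d, both among the libraries that lay apart. The ctrl value at 3 d was -0.66 ± 0.28 (adjusted p = 0.0903), with all 3 hearts below all sham hearts, as in 21.2% of all genes; by DESeq2 its adjusted p was 0.0214. It was -0.38 without replicate 3 of ctrl TAC 3 d, and -0.86 with a call without replicate 2 (adjusted p = 0.0441).

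As a share of the 2 heavy chains per length, Myh7 made up 0.845%, 0.740% and 0.947% in ctrl sham hearts, so that nearly all of this message was Myh6. At TAC 3 d the share was 1.70%, 1.16% and 3.55% in ctrl and 0.906%, 3.43% and 1.59% in cKO hearts, and at TAC 7 d it was 2.16%, 1.10% and 2.62% in ctrl hearts. In cKO hearts at 7 d it was 6.30%, 28.8% and 3.22%, each above every ctrl heart of that day. The means there were 12.8 ± 14.0 and 1.96 ± 0.78 percent (SD, n = 3). The exact permutation p was 0.1, the smallest possible, and 0.2 after adjustment over 10 comparisons. Without cKO TAC 7 d replicate 2 the cKO mean was 4.76%.

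**Figure D3:**
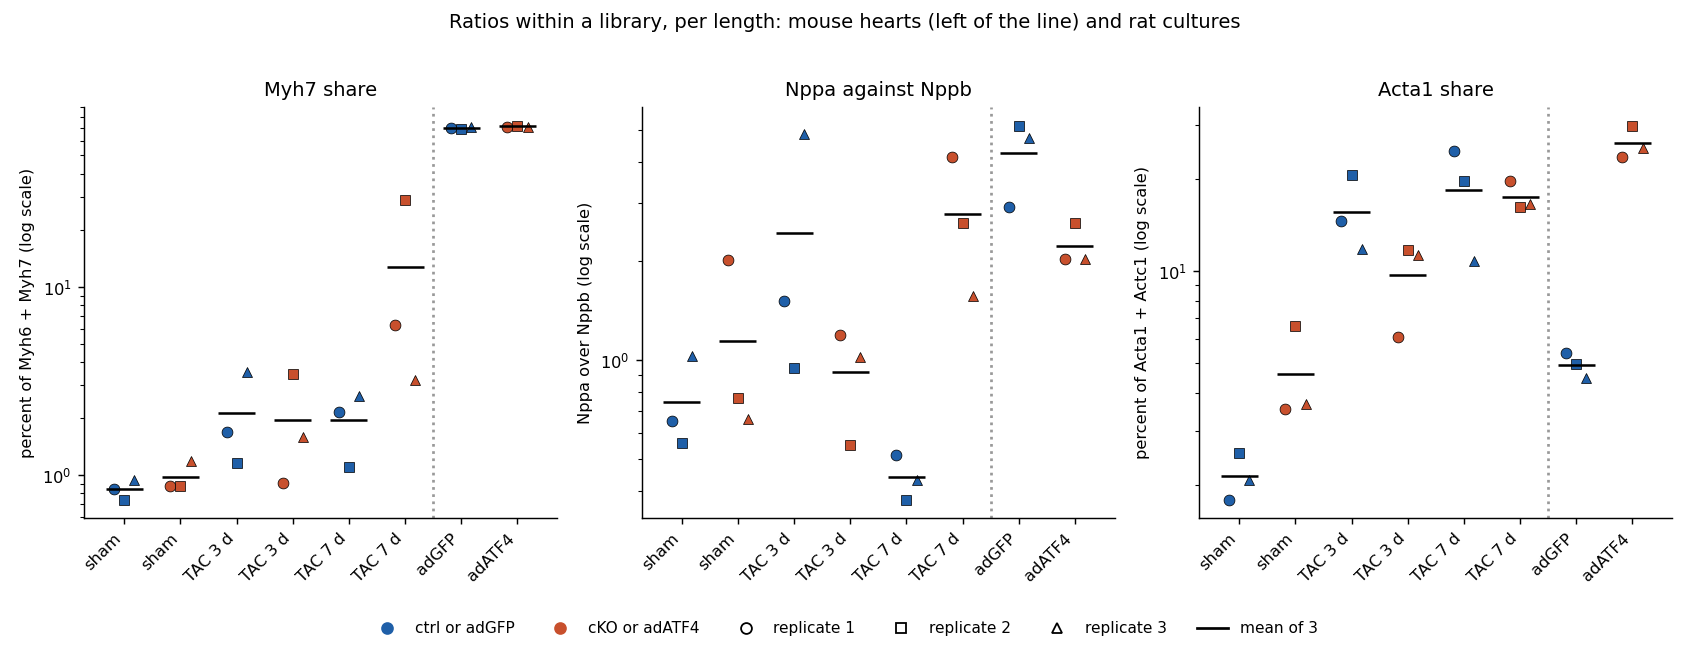
Ratios per gene length within each library, on log axes: Myh7 as a share of Myh6 plus Myh7, Nppa over Nppb, and Acta1 as a share of Acta1 plus Actc1. Each point is 1 library, with mouse hearts left of the dotted line and rat cultures right of it; the Myh7 share is about 1% in sham hearts, up to 28.8% in cKO hearts at TAC 7 d and about 70% in the rat cultures.

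Other sarcomere genes with fetal and adult forms were read from a list of 18. Of 17 tested, 3 rose and 1 fell in ctrl hearts at TAC 3 d, where 27.2% of all genes were called. Tpm3, a tropomyosin, and Actg1, a cytoplasmic actin, rose by 0.76 ± 0.11 and 0.97 ± 0.15, and Myl1, a light chain of fast skeletal and fetal cardiac muscle, by 2.00 ± 0.37 (edgeR, adjusted p = 0.000312, 0.000567 and 0.00127). These 3 were the members of the list that were lower in the cKO hearts at 3 d than in ctrl, by 0.86 ± 0.11, 0.61 ± 0.15 and 2.25 ± 0.37. Among ctrl hearts at 7 d 1 of the 17 rose, Actg1, by 0.58 ± 0.15 (adjusted p = 0.0302). Among cKO hearts at 7 d 3 rose, Tpm3 by 0.51 ± 0.11, and 3 fell, among them Tnnt1, slow skeletal troponin T, by 1.39 ± 0.26 and Myh7b by 1.33 ± 0.39. From 3 d to 7 d 4 fell in ctrl hearts, Tnni1, slow skeletal troponin I, by 2.24 ± 0.64. No member of the list differed between genotypes at 7 d.

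Thyroid hormone favours Myh6 over Myh7 in the rodent ventricle, and 11 genes of its control were tested. Of these, 2 rose and 6 fell in ctrl hearts at TAC 3 d. Dio3, the deiodinase that inactivates the hormone, rose by 5.19 ± 1.10 and Dio2, which activates it, by 3.19 ± 0.53, while Thrsp, a gene the hormone induces in liver, fell by 1.33 ± 0.28 (edgeR, adjusted p = 0.00328, 0.000749 and 0.00307). At 7 d 3 rose and 1 fell in ctrl hearts, with Dio2 up by 2.44 ± 0.54. Of the 11, 2 rose and 5 fell in cKO hearts at 7 d, with Dio2 up by 3.18 ± 0.49 and the retinoid receptor Rxra down by 0.64 ± 0.14. At 3 d Dio3 was lower in cKO hearts by 6.53 ± 1.28 and Thrsp higher by 1.66 ± 0.28 (adjusted p = 0.00436 and 0.00205), and no gene of the list differed between genotypes at 7 d. Of 17 transcription factors and deacetylases that act on the fetal genes, none rose and 7 fell in ctrl hearts at 3 d, led by Tbx5 (-0.83 ± 0.12), Hdac5 (-0.48 ± 0.08) and Hdac4 (-0.73 ± 0.17). At 7 d 2 rose and 2 fell in ctrl hearts, with Myocd, a coactivator of serum response factor, up by 0.75 ± 0.16. The cKO hearts at 7 d had 3 that rose and 3 that fell, with Mef2c up by 0.41 ± 0.11.

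Ankrd1, which encodes a stretch-responsive protein bound to titin, measured 1110.1, 815 and 1363 CPM in ctrl sham hearts, 5084, 4493 and 2672 CPM at TAC 3 d, and 4714, 1460.3 and 2987 CPM at TAC 7 d. In cKO hearts it measured 1788, 1688 and 1017 CPM in sham, 1214, 3449.9 and 2959 CPM at TAC 3 d, and 5034, 6467 and 5205 CPM at TAC 7 d. The cKO hearts at 7 d held 3 of the 4 highest values and did not overlap with ctrl hearts of that day. Ankrd1 rose by 1.90 ± 0.41 at 3 d and 1.48 ± 0.41 at 7 d in ctrl hearts (edgeR, adjusted p = 0.00381 and 0.0389), and by 1.89 ± 0.41 at 7 d in cKO hearts (adjusted p = 0.00659). The difference between genotypes at 7 d was 0.87 ± 0.40 (adjusted p = 0.282), and 11.8% of all genes were higher there without overlap. The difference in course from 3 d to 7 d was 1.55 ± 0.57 (adjusted p = 0.0618), and DESeq2 called it (adjusted p = 0.038). Without replicate 3 of ctrl TAC 3 d it was 1.81 and called (edgeR, adjusted p = 0.0426). On leaving out 1 heart it stayed uncalled in 10 of 12 cases, with an adjusted p up to 0.1295. Among 16 other genes of stretch sensing, titin binding and YAP targets, 6 rose and none fell in ctrl hearts at 3 d, with a median of 0.48. Fhl1, a titin-binding LIM protein, rose by 1.81 ± 0.36, Ankrd23, a relative of Ankrd1, by 1.52 ± 0.33 and Xirp2, an actin-binding protein of the intercalated disc, by 1.78 ± 0.43. At 7 d 4 rose in ctrl hearts, Ankrd2, another relative, by 3.12 ± 0.73, and in cKO hearts at 7 d 8 rose, Ankrd2 by 4.47 ± 0.64, Fhl1 by 2.60 ± 0.37 and Xirp2 by 2.70 ± 0.44. No gene of the list was called in cKO hearts at 3 d, where no gene of the whole table was, and Xirp2 and Fhl1 were lower in cKO than ctrl hearts on that day, by 1.35 ± 0.42 and 1.10 ± 0.35 (adjusted p = 0.0374 and 0.0399).

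Rcan1 encodes an inhibitor of calcineurin, and its transcript from an internal start is a standard readout of calcineurin and NFAT activity. The gene has 2 starts in RefSeq, and the deposited counts are per gene, so these transcripts could not be told apart. It measured 67.0, 76.8 and 61.9 CPM in ctrl sham hearts, 195, 199 and 277 CPM at TAC 3 d, and 288, 201 and 152 CPM at TAC 7 d. The cKO hearts stood at 77.0, 71.1 and 109 CPM in sham, 77.3, 165 and 230.2 CPM at TAC 3 d, and 152, 392 and 294 CPM at TAC 7 d. Again cKO TAC 3 d replicate 1 lay in the sham range. Rcan1 rose by 1.71 ± 0.36 and 1.64 ± 0.36 at 3 d and 7 d in ctrl hearts and by 1.71 ± 0.36 at 7 d in cKO hearts (edgeR, adjusted p = 0.00325, 0.0158 and 0.00561), and no difference between genotypes was called. Of 16 genes of calcineurin and NFAT themselves, none rose and 2 fell in ctrl hearts at 3 d, the calcineurin subunits Ppp3cb (-0.33 ± 0.09) and Ppp3r1 (-0.25 ± 0.08). At 7 d 2 rose in ctrl hearts, the NFAT kinase Gsk3b by 0.57 ± 0.11 and the calcineurin inhibitor Cabin1 by 0.38 ± 0.11, and in cKO hearts at 7 d 3 rose and 2 fell. Each of these changes was under 1 log2 unit where named, smaller than that of Rcan1.

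Sprr1a encodes a small proline-rich protein of squamous epithelium that heart muscle and neurons make after injury. It was counted 2, 0 and 1 times in the ctrl sham libraries, and 2, 2 and 5 times in cKO sham. After 3 d of TAC the ctrl hearts had 93, 49 and 10936 counts and the cKO hearts 11, 3 and 3. After 7 d the ctrl hearts had 14, 2 and 5 counts and the cKO hearts 186, 538 and 58. Nearly all of the signal in ctrl hearts at 3 d thus came from replicate 3, at 523 CPM against 5.29 and 2.67. The other 2 hearts of that group, with 142 counts against 3 in ctrl sham, were still higher by 60.7 times (95% interval from counting error alone 20.3 to 298). In cKO hearts at 7 d, 782 counts stood against 9 in cKO sham, a ratio of 82.8 (43.4 to 182), and against 21 in ctrl hearts at 7 d, a ratio of 35.1 (22.8 to 57.0). These intervals cover counting error and not the spread between hearts. Its tests in edgeR are not read here, since the counts that let it pass the filter are those compared. Its fitted fold changes rest on a few counts in the lower group and depend on the model's prior. The fitted difference between cKO and ctrl hearts at 3 d was -8.91 log2 units with all hearts and -3.26 on leaving out replicate 3 of ctrl and replicate 2 of cKO. That of ctrl hearts at 3 d over sham was 11.25 with all hearts and 5.79 without replicate 3. The value at 7 d over sham in cKO hearts was 6.31, and 5.18 without replicate 2 of 7 d. Of 6 markers of squamous epithelium Krt5, Krt14, Krt6a and Ivl were at 0 in all 18 hearts and Dsg3 in 12, while Trp63 was at 0.169 to 1.66 CPM.

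Sprr1a is induced in heart muscle by cytokines that act through gp130, and 13 genes of that pathway were tested. At 3 d 4 rose and 4 fell in ctrl hearts: Timp1, a protease inhibitor that these cytokines induce, rose by 4.89 ± 0.69, Stat3 rose by 0.62 ± 0.10 and the receptor chain Lifr fell by 0.81 ± 0.12 (edgeR, adjusted p = 0.000312, 0.000656 and 0.000448). At 7 d 3 rose in ctrl hearts, Stat3 by 0.84 ± 0.10, and 2 fell. Of the 13, 4 rose in cKO hearts at 7 d, Timp1 by 4.12 ± 0.64, and 2 fell, Ctf1, the cytokine cardiotrophin-1, by 1.54 ± 0.28. At 3 d Lifr was higher in cKO than in ctrl hearts by 0.60 ± 0.12. Of 10 small proline-rich and repair genes only 3 passed the filter on low counts. Tubb3, a neuronal tubulin, rose by 3.90 ± 0.76 in ctrl hearts at 3 d and by 3.78 ± 0.77 in cKO hearts at 7 d and was lower in cKO at 3 d by 2.95 ± 0.70, and Atf3 rose by 1.43 ± 0.47 in ctrl hearts at 3 d (adjusted p = 0.0345).

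Markers of other cells, and of muscle itself, moved with these comparisons. In ctrl hearts the summed level of 8 fibroblast markers went from 763 to 848 CPM after sham surgery to 2122 to 11158 CPM at TAC 3 d, the highest in replicate 3, and 6 of the 8 rose. It was 1168 to 1284 CPM in cKO hearts at 3 d, 842 to 1615 CPM in ctrl hearts at 7 d and 1671 to 3367 CPM in cKO hearts at 7 d, the highest in replicate 2. Of 7 macrophage markers all rose in ctrl hearts at 3 d and 6 in cKO hearts at 7 d. Of the 12 ventricular markers 4 fell in ctrl hearts at 3 d, where their sum was 25708 to 38107 CPM against 42862 to 45258 CPM in ctrl sham, and 3 fell and 1 rose in cKO hearts at 7 d. The share of counts from mitochondrial genes was 21.8% to 23.0% in sham hearts, 10.6% in replicate 3 of ctrl TAC 3 d and 14.5% in replicate 2 of cKO TAC 7 d. The hearts with the highest sums of fibroblast markers, replicate 3 of ctrl TAC 3 d and replicate 2 of cKO TAC 7 d, were those with the highest Nppa and the lowest Myh6 of their groups. In bulk tissue, fewer cells of a type and less RNA per cell cannot be told apart, and the part of cell makeup in the values of the 8 genes was not tested. Of the atrial list, Dkk3 rose with TAC (2.72 CPM on average in ctrl sham and 28.0 in cKO hearts at 7 d), and the sum of the 9 genes of that list was 97.1 to 121 CPM in ctrl sham, 69.2 to 89.7 CPM in ctrl hearts at 3 d, 76.5 to 94.9 CPM in cKO sham and 56.7 to 77.3 CPM in cKO hearts at 7 d. The sum of 9 skeletal muscle markers was 17.2 to 20.7 CPM in ctrl sham and 66.2 to 107 CPM in ctrl hearts at 3 d, most of it Mybpc2, and Myh4 was at 0 in 17 of 18 hearts, while Acta1 exceeded 1000 CPM.

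**Figure D4:**
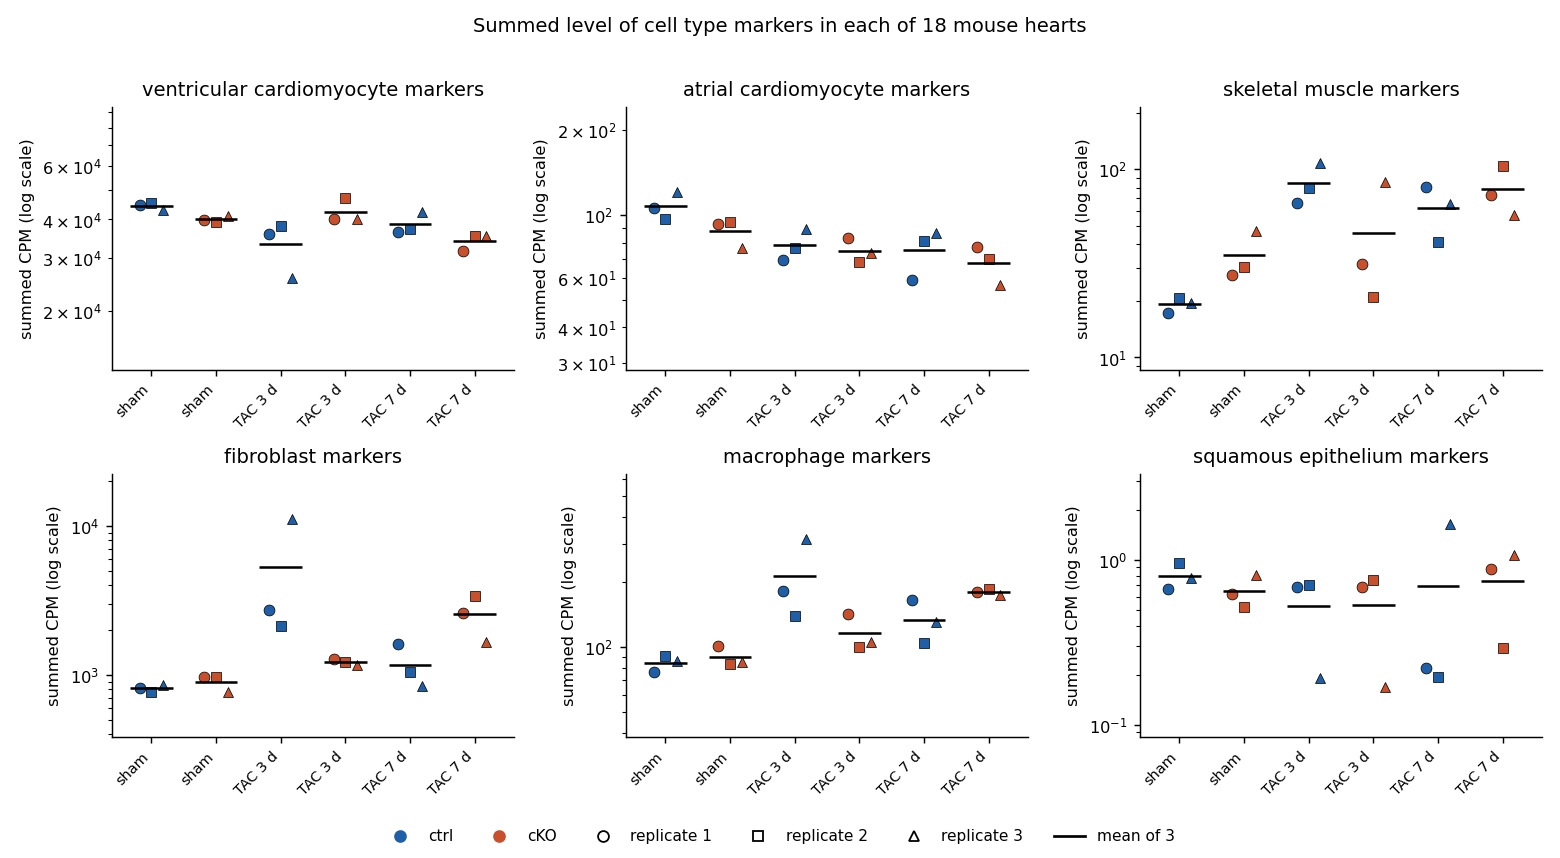
Summed CPM of 6 marker lists in every mouse heart, on log axes; each point is 1 heart, n = 3 in each group. Fibroblast and macrophage markers are highest in ctrl hearts at TAC 3 d and cKO hearts at TAC 7 d, and atrial markers are lowest in cKO hearts at TAC 7 d.

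In the rat myocytes ATF4 split the set. Rat values are FPKM as deposited, and fold changes are on the log2(FPKM + 1) scale. Atf4 rose from 276 ± 31.1 to 2563 FPKM on average, by 3.21 ± 0.10 (limma, adjusted p = 1.2e-08). Sprr1a was at 0 in 5 of the 6 cultures and was not tested. Of the 7 genes tested, 3 rose and 2 fell, where 50.6% of all genes were called, 24.2% higher and 26.4% lower, so the number called is not particular to this set. Acta1 measured 171, 182 and 175 FPKM in the adGFP cultures against 1589, 2252 and 1667 FPKM after adATF4, a rise of 3.36 ± 0.13 (adjusted p = 3.1e-08). Nppb went from 1334, 1126 and 1143 FPKM to 2469, 2122 and 2342 FPKM, and Rcan1 from 128, 120.2 and 111 FPKM to 236, 226 and 220.1 FPKM. These rises were 0.95 ± 0.11 and 0.92 ± 0.09 (adjusted p = 5.0e-05 and 1.6e-05). In all 3 genes the groups did not overlap, as in 27.8% of all genes tested.

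Both heavy chains fell. Myh7 measured 2573, 3477 and 3476 FPKM in the adGFP cultures and 1508, 1560.4 and 1502 FPKM in those given adATF4. Myh6 measured 1113, 1529 and 1412 FPKM against 612, 609 and 609 FPKM, and neither gene's groups overlapped, as in 30.5% of all genes. The falls were 1.05 ± 0.13 and 1.13 ± 0.12 (limma, adjusted p = 8.4e-05 and 2.9e-05), close to each other, and the share of Myh7 per length barely moved: it was 70.1 ± 0.87 percent with adGFP and 71.4 ± 0.45 percent with adATF4 (SD, n = 3, exact permutation p = 0.1, the smallest possible). The cultures thus held mostly the slow chain, where sham mouse hearts held under 1.2% of it. Nppa was at 3892, 5784 and 5389.6 FPKM and at 5000.1, 5533 and 4759 FPKM, a value of 0.04 ± 0.15 (adjusted p = 0.849), and Ankrd1 was at 2611, 2618 and 3031 FPKM and at 3146, 2732 and 3024 FPKM, a value of 0.11 ± 0.11 (adjusted p = 0.429). The ratio of Nppa to Nppb was accordingly 2.92, 5.14 and 4.71 with adGFP and 2.03, 2.61 and 2.03 with adATF4. The Acta1 share of Acta1 plus Actc1 was 4.95 ± 0.46 percent and 26.2 ± 3.2 percent.

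**Figure D5:**
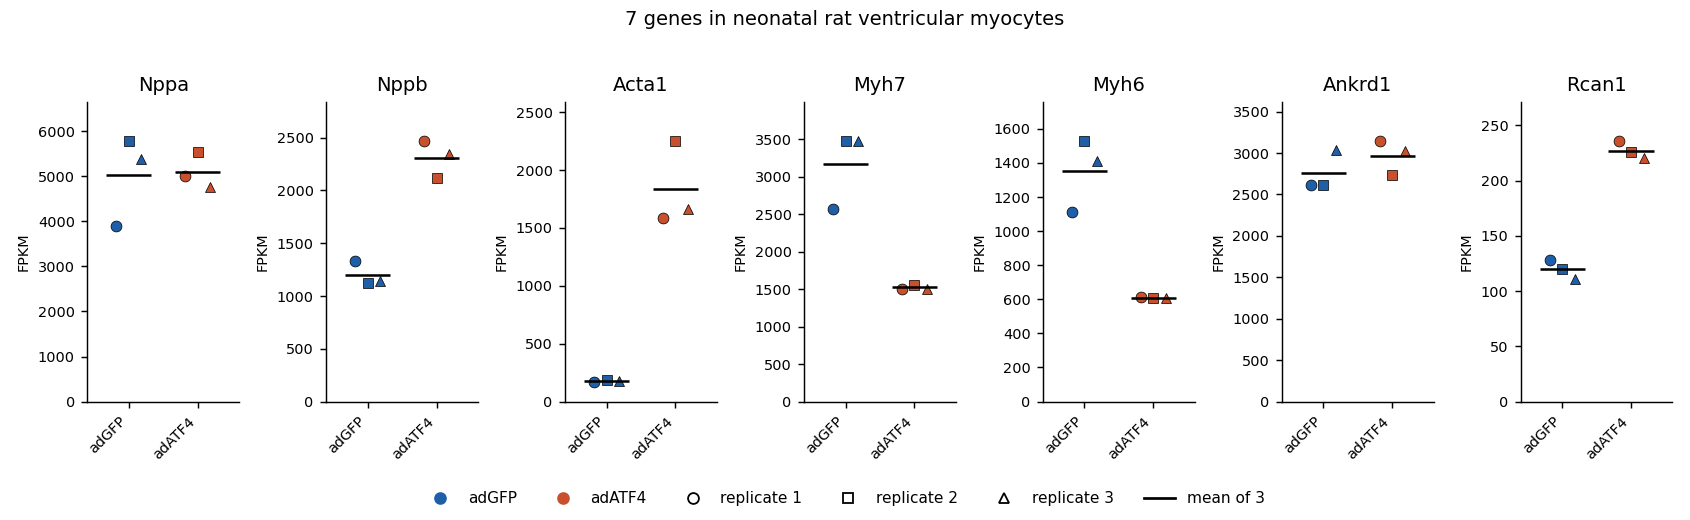
FPKM of 7 genes in each rat culture, on linear axes from 0; each point is 1 culture and each bar a group mean, n = 3. Acta1, Nppb and Rcan1 are higher with adATF4, Myh7 and Myh6 are lower, and the groups overlap for Nppa and Ankrd1.

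Counts for the related lists in the rat cells are to be read against the 50.6% of all genes called there. Of 12 genes of the natriuretic axis tested, none rose and 8 fell, with Npr3 lower by 1.97 ± 0.16, Mme by 1.47 ± 0.17 and Npr2, the receptor of C-type natriuretic peptide, by 1.11 ± 0.21 (limma, adjusted p = 5.9e-06, 5.5e-05 and 0.00142). Their median was -0.67 against -0.04 for all genes. Of 18 sarcomere isoform genes 3 rose and 6 fell, among them the atrial light chain Myl7 (-1.78 ± 0.12), Myh7b (-1.98 ± 0.17) and slow skeletal troponin I, Tnni1 (-1.24 ± 0.11). Of 13 stretch and titin genes 7 rose and 5 fell: Xirp2 rose by 3.95 ± 0.13, Fhl1 by 2.50 ± 0.09 and the YAP target Ctgf by 1.26 ± 0.12. Of 15 calcineurin and NFAT genes 1 rose and 4 fell, of 13 gp130 genes 1 rose and 7 fell, Stat3 by 0.73 ± 0.08, and of 8 thyroid hormone genes none rose and 4 fell, Thra by 1.49 ± 0.14. The 3 repair genes tested all rose, Atf3 by 3.76 ± 0.11, Tubb3 by 2.69 ± 0.14 and Gadd45a by 2.21 ± 0.14. Of 14 transcription factors none rose and 8 fell, Gata6 by 1.21 ± 0.10. Markers of atrial muscle summed to 3392 to 4194 FPKM in the adGFP cultures against 1080.0 to 1311 FPKM after adATF4, and 6 of the 10 ventricular markers tested fell. All 7 fibroblast markers tested fell as well, with a median of -1.47 and a sum of 867 to 900.1 FPKM in the adGFP cultures against 320.1 to 327 FPKM, as did 4 of 5 endothelial and 3 of 5 macrophage markers. The part of these markers in the values was not tested.

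Across the 18 hearts some members went together. The log2 levels of Rcan1 and Nppb had a Pearson r of 0.90, Nppb and Ankrd1 0.88, and Nppb and Acta1 0.87, whereas Myh6 ran against Sprr1a (-0.92) and Nppa (-0.77). By rank (Spearman) Myh6 had -0.74 with Sprr1a and -0.83 with Nppa, in the other order. Replicate 3 of ctrl TAC 3 d had 10936 counts of Sprr1a and the lowest Myh6 of the 18 hearts. How far this heart carries the Pearson values of Sprr1a was not tested. The correlations describe 18 libraries that share their groups and carry no test. By Pearson r the genes most like Nppa were Dkk3 (0.94), Ccdc88a (0.94) and Mfap5 (0.93), and those most like Nppb were Tnfrsf12a (0.97), Pdlim5 (0.95) and Eif4a1 (0.94). Acta1 was followed by Stat3 (0.95), Ankrd23 (0.91) and Scml4 (0.91), and Myh7 by Cast (0.93), Wwc2 (0.91) and Ppme1 (0.90). Myh6 was followed by Lrtm1 (0.97), Stard7 (0.97) and the calcium pump gene Atp2a2 (0.96). The nearest to Ankrd1 were Synpo2l (0.93), Scml4 (0.91) and Vcan (0.91), to Rcan1 Uck2 (0.97), Nlrc3 (0.96) and Ankrd23 (0.95), and to Sprr1a Loxl3 (0.98), Dap (0.98) and Cttn (0.97). For Sprr1a the values by rank were 0.94 with Loxl3, 0.91 with Dap and 0.87 with Cttn.

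The authors' deposited table gave fold changes close to these but other calls. In the authors' deposited table Nppb had an adjusted p of 0.0032 for cKO against ctrl in sham hearts, at a log2 fold change of 0.53, the 1 member under 0.05 there. At TAC 3 d the authors' deposited table had Nppa at -1.38 (adjusted p = 0.041), and at TAC 7 d Nppa at 3.11 (2.0e-05) and Sprr1a at 5.18 (0.00033). For TAC against sham in ctrl hearts the authors' deposited table listed 6 members under 0.05 at 3 d and 5 at 7 d, Myh7 among them on both days (0.49, adjusted p = 0.032, and 1.24, adjusted p = 0.011). The test behind these values is not stated in the sources used here.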

How the data were processed

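RNA-seq of 18 mouse hearts and 6 rat cultures was used. The mouse table deposited by the authors holds raw read counts and FPKM values per Ensembl gene, per the file headers, and, in 5 comparisons made by the authors, a log2 fold change and adjusted p-value. The rat table deposited by the authors holds FPKM per gene symbol. Bowtie 0.12.2 and mm9 are named in the submitters' processing notes, without a role and for both species. Of 54409 mouse gene IDs present in GENCODE M21, on GRCm38, 53499 had identical positions. How reads were counted, and whether by strand, is not stated in the sources used here. Depth was 15106975 to 18112798 counts for each mouse library; for the rat libraries no totals were given, and steps between low FPKM values put their relative depth at 0.920 to 1.32 of adGFP replicate 1. Of the rat gene names, 26 were calendar dates and were left out, and 6 columns that match no sample were not used. Among mouse genes, 102 symbols stood on more than 1 gene ID.

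For the hearts, edgeR 4.0.16 (R 4.3.3) was used: filterByExpr left 15535 of 54532 genes with 99.9% of the counts, TMM gave the scaling, and the 18 hearts entered a single quasi-likelihood model of 6 groups. The SE is the log2 fold change divided by the square root of the F statistic. For the rat cells, log2(FPKM + 1) of the 10571 genes that reached 1 FPKM in 3 or more libraries was tested with limma 3.58.1, with a trend in its empirical Bayes step. P-values are two-sided and adjusted by the Benjamini-Hochberg method over all genes tested; a gene is called, or said to rise or fall, at an adjusted p under 0.05. Ratios within a library were compared by exact permutation (scipy 1.17.1). The edgeR and limma steps were tested on simulated data. Libraries of a group were distinct, with a chi-square per degree of freedom of 7.09 to 147. Alternatives were other size factors, no filter, DESeq2 1.42.0, a replicate block, only the groups compared, another pseudocount, each library left out, both TAC 3 d libraries that lay apart left out together, and the 4 libraries that lay apart or were low in Atf4 left out together; the last was chosen after seeing the data.

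The 8 genes, the 9 lists of 143 related genes and the marker lists were chosen with earlier results of these data known. The text names the 8 genes, Atf4, up to 3 called genes with the smallest adjusted p from a list in a comparison, and for each of the 8 the 3 named genes with the highest r over the 18 hearts. Promoter sequences were matched by gene symbol in a RefSeq table, which held all 8.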

Additional observations from a re-analysis of the deposited data

Results flagged for a closer look

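The interaction of genotype and day in edgeR, a test of the difference itself, set the course from TAC 3 d to TAC 7 d apart between genotypes for Nppa and gave a large value for Sprr1a. For Nppa the difference was 4.48 ± 0.82 log2 units (adjusted p = 0.00493): the 3 ctrl hearts fell from 1009 to 3119 CPM at 3 d to 218 to 501 CPM at 7 d, while the 3 cKO hearts went from 308 to 1035 CPM to 1538 to 4030.1 CPM. For Sprr1a the fitted difference was 14.03 log2 units, with 49 to 10936 counts at 3 d and 2 to 14 at 7 d in ctrl hearts and 3 to 11 and then 58 to 538 counts in cKO hearts. Sprr1a passed the filter on low counts through these same high groups, 1 library of which holds 10936 counts, so its test is not read. The size of its value rests on groups with few counts and was 8.58 to 14.93 on leaving out 1 heart. Of all genes tested, 21.0% were called in this interaction.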

How the results depend on the processing

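Of the called values of single genes, 355 alternatives kept direction and call, 40 lost the call and 0 changed sign; of values not called, 995 kept their side, 65 gained a call and 48 changed sign. The cause was not tested. Counts of members here include Sprr1a. With no filter on low counts edgeR called more members: 2 for cKO against ctrl in sham, 5 at TAC 3 d and 4 at TAC 7 d, 5 for TAC 3 d against sham in cKO, 6 for 7 d against 3 d in cKO, 5 and 2 for the genotype by TAC interactions at 3 d and 7 d and 7 for that of genotype and day. Over all genes that setting also called more in several comparisons. Between genotypes it called 67 genes in sham (3 with the filter) and 1149 at TAC 7 d (40 with the filter). For TAC 3 d against sham in cKO it called 219 (0 with the filter). In the genotype by TAC interactions it called 1597 at 3 d (104) and 96 at 7 d (0). The counts of members are to be read against these. DESeq2 called 0 members between genotypes at TAC 3 d, 2 at TAC 7 d and 1 in the interaction at 3 d. Library totals gave 2 between genotypes at TAC 3 d and 4 for 7 d against 3 d in cKO. Of all genes they called 3447 between genotypes at TAC 3 d, where TMM called 2655. With only the groups compared, 0 members were called between genotypes at TAC 3 d, 0 at TAC 7 d and 0 for 7 d against 3 d in ctrl. For TAC 7 d against sham in ctrl that setting added calls for Nppa and Myh7, where it called 2569 of all genes and the main model 1132. On leaving out both TAC 3 d libraries that lay apart, 0 were called between genotypes at TAC 3 d and 4 for 7 d against 3 d in cKO. Without all 4 libraries that lay apart or were low in Atf4, 2 were called between genotypes at TAC 7 d, Sprr1a among them. Leaving out 1 library gave 1 to 2 members between genotypes at TAC 3 d, Sprr1a in every case, and 0 to 1 at TAC 7 d. Against sham it gave 1 to 3 for TAC 7 d in ctrl and 0 to 1 for TAC 3 d in cKO. For 7 d against 3 d it gave 1 to 2 in ctrl and 0 to 3 in cKO, and in the interaction at 3 d 0 to 1.

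Values that changed sign were not called. With library totals these were Nppb between genotypes at TAC 3 d (-0.19), Acta1 between genotypes at TAC 7 d (0.066), Myh6 at TAC 7 d against sham in ctrl (0.055) and Acta1 from 3 d to 7 d in ctrl (-0.11); the last was -0.0024 with DESeq2's size factors and -0.0025 with its test. Without the 2 TAC 3 d libraries Nppb between genotypes at 3 d was -0.74, Acta1 and Rcan1 from 3 d to 7 d in ctrl -0.28 and 0.10, and Myh7 in the interaction at 3 d -0.11; without all 4 they were -0.74, -0.28, 0.10 and -0.18, and Nppb and Rcan1 in the interaction at 7 d were -0.20 and -0.19. Leaving out 1 library gave, between genotypes, Myh7 -0.13 to 0.27 in sham, Nppb -0.52 to 0.49 and Myh7 -0.050 to 1.05 at 3 d, and Acta1 -0.30 to 0.31 at 7 d. It gave Myh6 -0.076 to 0.038 at 7 d in ctrl and -0.077 to 0.061 at 3 d in cKO against sham; from 3 d to 7 d Acta1 -0.35 to 0.39 and Rcan1 -0.35 to 0.13 in ctrl and Nppb -0.28 to 0.73 in cKO; in the interactions Myh7 -0.20 to 0.90 at 3 d, and Nppb -0.31 to 0.39 and Rcan1 -0.26 to 0.36 at 7 d; and Nppa -0.13 to 0.15 in the rat cells.

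The labels used here do not say whether replicate numbers pair the samples. After removal of group means, correlations of same-numbered libraries were -0.16 to 0.24 in the hearts and -0.06 to 0.22 in the rat cells. Differently numbered libraries were not compared, so these values cannot decide whether samples were paired. With the replicate block 0 members were called between genotypes at TAC 7 d, Nppa there being 3.20 (adjusted p = 0.0728), and 3 for TAC 7 d against sham in ctrl, where Ankrd1 was 1.45 (adjusted p = 0.0608); Nppb and Rcan1 in the interaction at 7 d were -0.0097 and -0.0075.

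Library totals, against TMM, shifted the median of all genes by up to 0.315 log2 units and raised the share of higher calls for TAC 3 d against sham in ctrl from 54.6% to 82.4%, while lowering that between genotypes at TAC 3 d from 45.2% to 15.8%. Counts over all genes also varied, for cKO against ctrl in sham from 3 to between 0 and 67, at TAC 3 d from 2655 to 114, at TAC 7 d from 40 to between 10 and 1149, for TAC 3 d against sham from 4225 to 2333 in ctrl and from 0 to 219 in cKO, for TAC 7 d against sham in ctrl from 1132 to 2569, for 7 d against 3 d from 2293 to 39 in ctrl and from 3037 to 1601 in cKO, in the interactions from 104 to between 0 and 1597 and from 0 to 96, and for genotype and day from 3266 to 1316. Leaving out 1 library gave 953 to 3853 between genotypes at TAC 3 d and 5 to 64 at TAC 7 d, the lowest without replicate 2 of the cKO hearts of that day in both. It gave 2310 to 4936 for TAC 3 d against sham in ctrl (lowest without replicate 3 of TAC 3 d), 87 to 883 for TAC 7 d against sham in ctrl (lowest without sham replicate 1) and 1353 to 2900 in cKO (lowest without replicate 2 of TAC 7 d). From 3 d to 7 d it gave 523 to 3132 in ctrl and 1245 to 2871 in cKO, for genotype and day 1758 to 4465, and in the interaction at 3 d 0 to 1363. In the rat cells the 5 calls among the members were kept under every alternative. With 3 libraries in a group, exact permutation cannot give a p under 0.1, and Sprr1a is limited by its counts.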

Other observations

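A list of 20 other markers of cardiac stress and remodelling was also read, of which 19 were tested. Like the other lists it was chosen with earlier results of these data known, so its counts are not independent support for the courses above. In ctrl hearts at TAC 3 d 14 rose and none fell, with a median of 1.72 against -0.0014 for all genes. Of all genes, 27.2% were called in that comparison and 14.8% rose. Tnc, the matrix protein tenascin C, rose by 6.13 ± 0.73, Gdf6, a growth factor of the BMP family, by 3.63 ± 0.52 and the filament gene Vim by 1.73 ± 0.20 (edgeR, adjusted p = 0.000153, 0.000319 and 0.000143). At TAC 7 d 7 rose in ctrl hearts, Tnc by 4.13 ± 0.72. In cKO hearts none was called at 3 d and 15 rose at 7 d, Tnc by 4.35 ± 0.66, Gdf6 by 2.96 ± 0.49 and Cilp, a matrix protein, by 3.73 ± 0.65. Between genotypes at 3 d 6 were lower in cKO, among them Vim (-1.25 ± 0.20), Nes (-1.66 ± 0.32) and Gdf6 (-2.37 ± 0.47), and none was called at 7 d. In the interaction of genotype and day 11 were higher, Cilp by 4.80 ± 0.85, where 11.0% of all genes were higher. In the rat cells 6 rose and 7 fell, with Hbegf up by 1.37 ± 0.12, Mybpc2 up by 1.79 ± 0.13 and Cilp down by 2.15 ± 0.14. Several of these genes, such as Vim and Cilp, are made by fibroblasts, whose markers moved with the same comparisons, and the part of cell makeup in them was not tested.

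The interaction of genotype and day was also tested for the other lists: 5 of 16 stretch genes were higher in it, Fhl1 by 2.55 ± 0.49, 3 of 17 sarcomere genes were higher and 1 lower, and of 11 thyroid hormone genes 2 were higher and 3 lower, Dio2 by 2.77 ± 0.63 and Thrsp by -1.75 ± 0.39. None of 13 natriuretic axis genes was higher and 3 were lower, and none of 16 calcineurin and NFAT genes was higher and 4 were lower. Among 17 transcription factors and deacetylases none was higher and 1 was lower. For gp130, 2 of 13 genes were higher and 2 lower, and of 3 repair genes 1 was higher. The background in this interaction was 21.0% of all genes called and 11.0% higher.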
